A study of Mus musculus with 48 samples.

Results

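The serpins are a superfamily of protease inhibitors, and 6 of their genes are described here in mouse splenic natural killer (NK) cells: Serpinb9, Serpinb6a, Serpinb6b, Serpinb1a, Serpina3g and Serpine2. They are 6 of the 24328 gene symbols with read counts in all 48 libraries. The first 5 were listed as Serpinb9 and relatives. They were chosen by name with earlier results of these data in view, and Serpine2 was selected on its CPM values, whose means differed in opposite directions between knockout and control cells of 2 Bach2 knockout models. Its knockout values below are therefore a description and carry no test. Across the 48 libraries 63 symbols begin with Serpin, of which 21 had no read in any library and 14 reached a mean of 1 CPM (the count of a gene scaled to the size of its library) in at least 1 group. All 6 genes had reads in every library and passed the low-count filter in each of the 3 experiments.

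A serpin presents a reactive loop as bait to a protease, is cut, and traps the enzyme in a covalent complex, so that inhibitor and enzyme are both used up. Cytotoxic lymphocytes store granzymes, serine proteases that perforin delivers into a target cell, and hold intracellular clade B serpins in their own cytosol. Serpinb9 inhibits granzyme B and protects killer cells from granzyme B that leaks out of their granules. In mice, Serpinb6b inhibits granzyme A, Serpinb6a inhibits cathepsin G, and Serpinb1a inhibits neutrophil elastase and related enzymes. Serpina3g (Spi2A) acts inside the cell on cysteine cathepsins, and Serpine2 (protease nexin-1) is secreted and inhibits thrombin and plasminogen activators.

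RNA-seq read counts came from 3 experiments, and 2 of them target Bach2, the gene of a bZIP transcription repressor. In the conditional experiment, cKO mice were Bach2flox/flox Ncr1Cre and cWT mice carried Ncr1Cre alone, so Cre driven by Ncr1, which NK cells and some innate lymphoid cells express, is common to both genotypes. Each genotype gave 4 spleen fractions labelled iNK, mNK1, mNK2 and NK, with 3 libraries per group. In the chimera experiment, Bach2-KO and WT NK cells were sorted from spleens of mice reconstituted with bone marrow of both genotypes in about equal parts, with 4 libraries per genotype, and the labels name no Cre driver for these cells. The WT subset experiment holds 4 libraries each of iNK, mNK1, KLRG1- mNK2 and KLRG1+ mNK2 cells of WT mice, KLRG1 being a receptor of late NK cells. In this field iNK, mNK1 and mNK2 stand for immature and successively more mature NK cells. The sorting gates, the ages of the mice and the number of animals behind a library are not given in the sources used here. Nor do they state whether Bach2-KO and WT chimera libraries of the same number came from the same host.

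Of the 6 genes, 4 lie on mouse chromosome 13, where RefSeq (GRCm38.p6) places 15 of the 63 family symbols. Serpinb6b and Serpinb9 are neighbours there, in the order Serpinb1c, Serpinb6b, Serpinb9 and Serpinb9b. Serpina3g lies on chromosome 12 between Serpina3f and Serpina3i, and Serpine2 on chromosome 1 between Mrpl44 and Fam124b. Promoter windows were matched for 5 of the 6 genes, with 2 start sites for Serpinb6a. The 4 windows below are the 250 bases before the RefSeq start site, 5′ to 3′ on the gene's own strand. Serpinb9 and Serpinb6a are shown because their group means, centred within each experiment, had the highest correlation among the 6 genes. Serpine2 is shown because it was listed for its opposite knockout directions. Its different course over the groups depends in part on that selection. Serpinb6b is shown as the neighbour of Serpinb9 among the 6 genes. Both were higher in mNK1 than in iNK cells, as was Serpinb9b, the neighbour on the other side. Capitals mark a match to the core of the interferon-stimulated response element (GAAA, any 2 bases, then GAAA), which lies on the opposite strand in both cases.
Serpinb9 (GRCm38.p6, chr13:33004291-33004540, plus strand): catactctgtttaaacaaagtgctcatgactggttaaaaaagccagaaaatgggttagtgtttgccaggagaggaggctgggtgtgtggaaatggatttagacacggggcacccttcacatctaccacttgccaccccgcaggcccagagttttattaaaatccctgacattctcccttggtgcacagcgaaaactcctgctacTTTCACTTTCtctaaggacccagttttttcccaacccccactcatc
Serpinb6a (GRCm38.p6, chr13:34002795-34003044, minus strand, upstream start site): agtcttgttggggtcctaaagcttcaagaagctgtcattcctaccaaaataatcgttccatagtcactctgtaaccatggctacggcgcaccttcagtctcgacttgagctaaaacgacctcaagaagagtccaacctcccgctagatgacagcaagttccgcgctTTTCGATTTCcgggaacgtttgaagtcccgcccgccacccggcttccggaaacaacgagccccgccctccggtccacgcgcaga
Serpinb6b (GRCm38.p6, chr13:32965011-32965260, plus strand): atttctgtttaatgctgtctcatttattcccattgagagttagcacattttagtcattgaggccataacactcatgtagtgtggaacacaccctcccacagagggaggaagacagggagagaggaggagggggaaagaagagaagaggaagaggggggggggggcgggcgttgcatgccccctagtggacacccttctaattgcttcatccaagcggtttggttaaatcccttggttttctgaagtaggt
Serpine2 (GRCm38.p6, chr1:79858666-79858915, minus strand): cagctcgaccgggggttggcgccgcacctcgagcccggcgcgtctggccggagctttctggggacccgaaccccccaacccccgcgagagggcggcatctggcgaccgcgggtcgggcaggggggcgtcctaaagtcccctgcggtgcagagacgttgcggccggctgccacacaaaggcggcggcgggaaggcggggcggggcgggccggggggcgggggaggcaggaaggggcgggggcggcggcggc

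The match begins 46 bases before the Serpinb9 start and 84 bases before the upstream Serpinb6a start. The window of the other Serpinb6a start site (GRCm38.p6, chr13:33936084-33936333) holds no match. On either strand, 2.98% of 32851 windows of this length hold it. The BACH and AP-1 core TGAGTCA (4.46% of windows) and the T-box half-site AGGTGTGA (1.12%), searched on both strands, were not among the letters of the 6 windows of these genes. These matches describe letters only and were not tied to binding. The Serpine2 window is 78.8% G and C, against 47.6% in the Serpinb9 window and 49.6% in the Serpinb6b window.

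Each conditional library held 13650636 to 21029172 counts, each WT subset library 8973777 to 11924274 and each chimera library 8557018 to 12927472. The share of the ribosomal RNA gene Rn45s was 0.089% to 0.36% for conditional libraries but 18.6% to 29.1% for WT subset and 20.04% to 25.8% for chimera libraries, so levels are compared only within an experiment. Bach2 itself averaged 2.11 ± 0.927 CPM in Bach2-KO cells and 15.5 ± 2.21 CPM in WT cells of the chimeras (SD, n = 4 each), a log2 fold change of -2.89 ± 0.27 (edgeR adjusted p = 2.74e-07). In the libraries labelled cKO its mean was not lower but higher than in those labelled cWT in all 4 fractions, with edgeR adjusted p-values of 0.0776 to 0.552. With 1 count per gene, and the floxed exons not given in the sources used here, these counts do not check the cKO label. Every direction given for cKO therefore belongs to the libraries labelled so. The 10 NK marker genes were detected in every group, with summed levels of 10284 to 38183 CPM per library. Ncr1, 1 of these markers, is the gene whose promoter drives Cre. It differed between the conditional genotypes without overlap in any fraction, as for 10.7% to 14.1% of all genes. It had 1569.9, 1551 and 1578 CPM in cKO against 229, 198 and 826 CPM in cWT NK libraries, and 2424, 2395 and 2059 CPM in cKO against 342, 279 and 1130 CPM in cWT mNK2 libraries. In all 4 fractions cWT replicate 3 stood above cWT replicates 1 and 2. The differences of 1.73 to 1.97 on the log2 scale did not pass (edgeR adjusted p = 0.417 to 0.763), and in the chimeras Ncr1 was at 2048 ± 178 CPM in Bach2-KO and 1815 ± 172 CPM in WT cells, with overlap. Its part in the serpin differences between cKO and cWT libraries was not tested. Without cWT replicate 3 the Serpinb9 log2 difference was 0.40 in NK, 0.09 in iNK, 0.33 in mNK1 and 0.35 in mNK2 cells, and that of Serpine2 was -1.31, -1.27, -1.46 and -1.50 in the same fractions.

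In the knockout comparisons Serpinb9 was the gene that passed the test. It was higher in Bach2-KO than in WT chimera cells and higher in the NK fraction labelled cKO than in that labelled cWT. Calls are from edgeR's quasi-likelihood test at a threshold of 0.05, with Benjamini-Hochberg adjustment over all genes of the comparison. Of the 5 genes other than Serpine2, 1 was called in the chimeras, where 5% of 10614 genes were called (2.64% higher and 2.36% lower). In the NK fraction 1 of the 5 was called, where 0.571% of 12258 genes were called (0.318% higher and 0.253% lower). In the iNK, mNK1 and mNK2 fractions 0 of the 5 were called by edgeR and 0 by DESeq2, where edgeR called 0.294% of all genes in iNK (0.212% higher and 0.0816% lower), 0.571% in mNK1 (0.383% higher and 0.188% lower) and 0.261% in mNK2 (0.131% in each direction). At an unadjusted p under 0.05 there were 2 in iNK (Serpinb6b lower, Serpinb1a higher), 2 in mNK1 (Serpinb9 and Serpinb1a higher) and 1 in mNK2 (Serpinb9 higher). The share of all genes at that cut was not counted. In edgeR's ranking an unadjusted p of 0.0487 stood at rank 939 of 12258 in iNK, and 0.049 at rank 584 in mNK2. These counts of the 5 genes are therefore a description only. Over these 5 genes the median log2 fold change was 0.00 in the cKO NK fraction, 0.10 in iNK, 0.09 in mNK1, 0.04 in mNK2 and 0.04 in the chimeras, beside medians of 0.00, 0.02, 0.01, -0.02 and -0.01 over all genes tested.

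**Figure D1:**
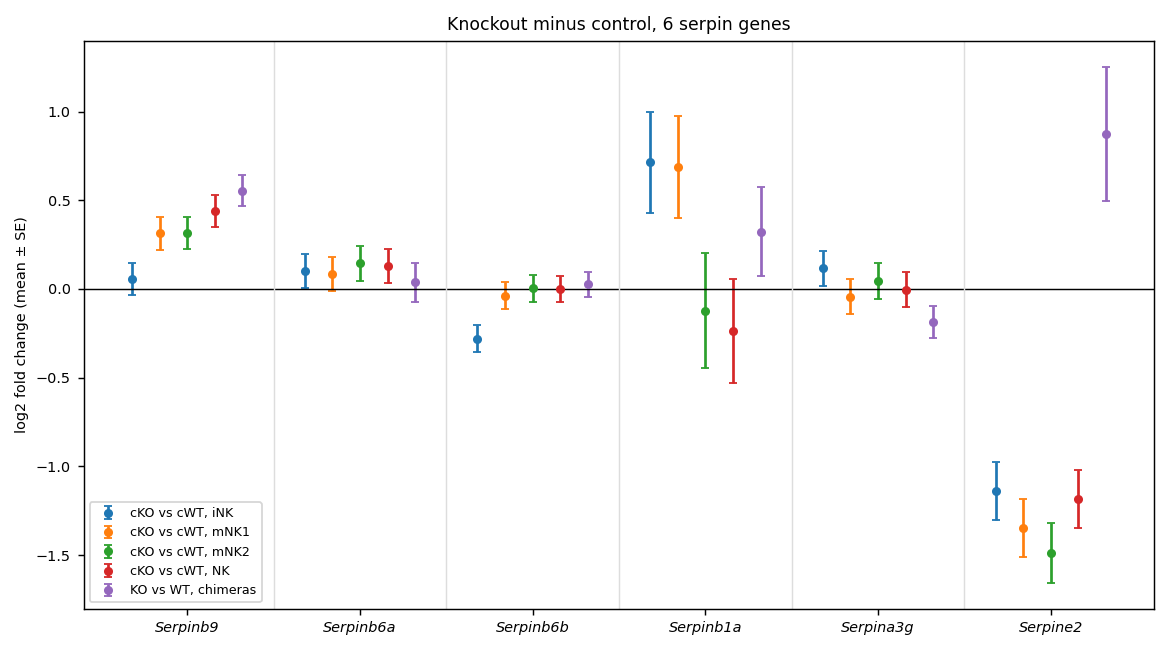
Log2 fold change (vertical axis, point ± SE) of cKO over cWT in 4 fractions and of Bach2-KO over WT in the chimeras, for each of the 6 serpin genes. Serpinb9 points lie between 0.06 and 0.55, while Serpine2 lies between -1.49 and -1.14 in the conditional fractions and at 0.87 in the chimeras, the values for which it was listed.

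Between subsets, Serpinb9 and Serpinb6b were higher in mNK1 than in iNK cells of all 3 kinds of mice, and Serpinb6a was higher by small amounts in the conditional mice. Serpina3g and Serpinb1a were lower in mNK2 than in mNK1 cells of the conditional mice. For mNK1 against iNK, 4 of the 6 genes were called in cKO cells and 4 in cWT cells, all higher. Of all genes 22.7% were called in cKO cells (11.3% higher and 11.4% lower) and 18.5% in cWT cells (10.2% higher and 8.29% lower). In the WT subsets 2 of 6 were called, both higher, where 6.39% of 11051 genes were called higher and 4.14% lower (10.5% in all). All 4 genes called in cKO and cWT cells had libraries that did not overlap, as for 34.8% of all genes in cKO and 34.4% in cWT cells, and so had the 2 in WT cells, as for 14.7% of all genes. For mNK2 against mNK1, 5 of 6 were called in cKO cells (2 higher and 3 lower) and 6 of 6 in cWT cells (2 higher and 4 lower), where 7.09% of all genes were called higher and 14.3% lower in cKO cells (21.3% in all) and 7.7% higher and 12.5% lower in cWT cells (20.2% in all). For KLRG1- mNK2 against mNK1 of the WT subsets, 2 of 6 were called, both lower, against 7.29% of all genes (2.18% higher and 5.11% lower). For KLRG1+ against KLRG1- mNK2, 1 of 6 was called, lower, against 1.36% of all genes (0.733% higher and 0.624% lower). The median log2 fold change of the 6 genes in mNK1 against iNK was 0.45 in cKO, 0.56 in cWT and 0.36 in WT cells, and over all genes tested it was 0.01, 0.02 and -0.01. In mNK2 against mNK1 it was -0.50 in cKO and -0.56 in cWT cells, over all genes -0.02 and -0.03. For KLRG1- mNK2 against mNK1 it was -0.12 and for KLRG1+ against KLRG1- mNK2 0.12, beside 0.01 and -0.01 over all genes.

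**Figure D2:**
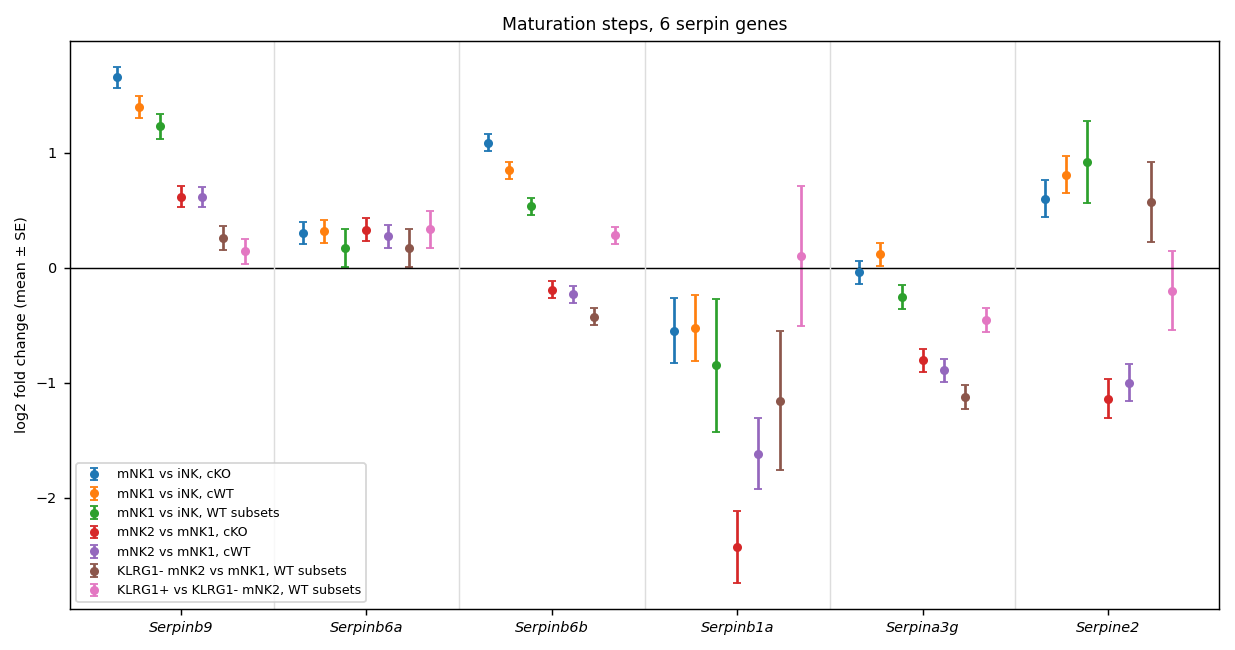
Log2 fold change (vertical axis, point ± SE) of the later over the earlier subset for each serpin gene, in cKO, cWT and WT subset libraries. Serpinb9 lies at 1.23 to 1.66 for mNK1 against iNK, Serpinb1a at -2.43 and -1.62 for mNK2 against mNK1, and Serpine2 points lie below 0 for mNK2 against mNK1 in the conditional libraries but above 0 for KLRG1- mNK2 against mNK1 in the WT subsets.

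The iNK libraries also held more reads of T and B cell markers, and in bulk samples fewer cells of a type and less RNA per cell cannot be told apart. The 8 T cell markers summed to 1295 to 2134 CPM in the conditional iNK libraries, against 54.1 to 86.3 CPM in the mNK1 libraries, and the 10 B cell markers to 536 to 1525 CPM against 36.8 to 65.0 CPM. All 8 T and all 10 B cell markers were called lower in mNK1 than in iNK cells of both conditional genotypes. For WT subsets the T cell sum was 50.8 to 79.9 CPM in mNK1 against 744 to 925 CPM in iNK libraries, and 6 of 8 T and 2 of 9 tested B cell markers were called lower. Other markers were higher in mNK1 than in iNK cells. Neutrophil markers were called higher for 6 of 9 in cKO, 8 of 9 in cWT and 4 of 8 in WT cells, with sums of 110.3 to 254 CPM in mNK1 against 33.7 to 53.2 CPM in iNK libraries labelled cKO and 72.5 to 290 CPM against 20.1 to 25.6 CPM in those labelled cWT. Myeloid and dendritic markers were called higher for 3 of 5 in WT cells, and for 1 of 10 in cKO and 1 of 10 in cWT cells, where 2 of 10 were lower in each. NK markers were called higher for 8, 6 and 8 of 10 in cKO, cWT and WT cells, with mean sums of 21008 CPM in mNK1 against 11276 CPM in iNK cells labelled cKO. At the step of mNK2 over mNK1, 7 of 8 T cell markers were called lower in cKO and in cWT cells, with sums of 5.57 to 16.1 CPM in mNK2 against 54.1 to 86.3 CPM in mNK1 libraries. The part of any of these cells in the serpin values was not tested.

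In the chimeras Serpinb9, the granzyme B inhibitor, had 1217, 1147, 1035 and 957 CPM in the 4 Bach2-KO libraries, against 814, 759, 668 and 724 CPM in the WT libraries. Every Bach2-KO library lay above every WT library, as for 9.57% of all genes in this comparison. The means were 1089 ± 116 CPM and 742 ± 61.3 CPM (SD, n = 4 each), a log2 fold change of 0.55 ± 0.09 (edgeR adjusted p = 0.00019). Leaving out any 1 of the 8 libraries gave adjusted p-values of 1.72e-05 to 0.00182. The same libraries differed in markers of other cells. Neutrophil markers summed to 153 to 655 CPM in Bach2-KO against 6.71 to 65.8 CPM in WT libraries (4 of 10 called higher), and myeloid and dendritic markers to 81.7 to 226 CPM against 22.5 to 44.1 CPM (3 of 6 tested called higher). B cell markers summed to 15.6 to 45.3 CPM in Bach2-KO against 78.9 to 216 CPM in WT libraries (8 of 8 tested called lower), and T cell markers to 15.6 to 22.2 CPM against 83.8 to 157 CPM (4 of 6 tested called lower). Markers of early NK and innate lymphoid cells summed to 739 to 870.0 CPM in Bach2-KO against 1170.4 to 1404 CPM in WT libraries (4 of 5 called lower). The part of these markers in the Serpinb9 difference was not tested.

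In the conditional NK fraction Serpinb9 had 1201, 1097 and 1002 CPM in the libraries labelled cKO, against 767, 893 and 771 CPM in those labelled cWT. The groups did not overlap, as for 10.7% of all genes, and the means were 1100.0 ± 99.8 CPM and 810.5 ± 71.9 CPM (SD, n = 3 each). The log2 fold change was 0.44 ± 0.09 (edgeR adjusted p = 0.0215), and the adjusted p was 0.137 without cWT replicate 1, 0.149 without cWT replicate 3, 0.154 without cKO replicate 1 and 0.076 without cKO replicate 2. The 5 markers of early NK and innate lymphoid cells moved in this fraction too, with sums of 1754 to 1844 CPM in cKO against 2499 to 2720 CPM in cWT libraries and 4 of 5 called lower. They were called lower for 3 of 5 in mNK1, 3 of 5 in mNK2 and 0 of 5 in iNK cells labelled cKO, and their part in the Serpinb9 values was not tested. In mNK1 cells it had 939.8, 999 and 973 CPM in cKO against 683, 856 and 804 CPM in cWT libraries, a log2 fold change of 0.31 ± 0.09 that did not pass (adjusted p = 0.169). In mNK2 cells it had 1594, 1509 and 1365 CPM in cKO against 1111, 1218 and 1264 CPM in cWT libraries, again 0.31 ± 0.09 without passing (adjusted p = 0.274). The groups did not overlap in either subset, as for 14.1% of all genes in mNK1 and 11.3% in mNK2. In iNK cells the values interleaved, at 292, 303 and 326 CPM in cKO against 280.1, 292 and 315 CPM in cWT libraries, with a log2 fold change of 0.06 ± 0.09 (adjusted p = 0.858). The cKO effect in mNK1 minus that in iNK was 0.26 ± 0.13 on the log2 scale, with an unadjusted p of 0.0567 and an adjusted p of 1 in edgeR's interaction test, so a difference between these subsets was not shown. For Serpinb9 the cKO effect in mNK2 minus that in mNK1 was 0.00 ± 0.13 (adjusted p = 1).

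Along maturation Serpinb9 went up at each step of the conditional experiment. It averaged 307 ± 17.4 CPM in iNK, 971 ± 29.7 CPM in mNK1 and 1489 ± 116 CPM in mNK2 cells labelled cKO, and 296 ± 17.6, 781 ± 88.8 and 1198 ± 78.5 CPM in the same order in those labelled cWT (SD, n = 3 each). The log2 fold change of mNK1 over iNK was 1.66 ± 0.09 in cKO cells (adjusted p = 3.44e-12) and 1.40 ± 0.09 in cWT cells (adjusted p = 8.75e-11). That of mNK2 over mNK1 was 0.62 ± 0.09 in both genotypes, with adjusted p-values of 1.57e-05 in cKO and 2.18e-05 in cWT cells. In the WT subsets Serpinb9 averaged 312 ± 52.2 CPM in iNK, 733 ± 90.2 CPM in mNK1, 876 ± 110.3 CPM in KLRG1- mNK2 and 968 ± 70.4 CPM in KLRG1+ mNK2 cells (SD, n = 4 each). There mNK1 exceeded iNK with a log2 fold change of 1.23 ± 0.11 (adjusted p = 1.86e-08), while the later neighbours overlapped and did not pass, at 0.26 ± 0.11 (adjusted p = 0.168) for KLRG1- mNK2 over mNK1 and 0.14 ± 0.11 (adjusted p = 0.758) for KLRG1+ over KLRG1- mNK2. Ordered by mean within the conditional experiment, the neighbours whose libraries overlapped were cWT and cKO iNK, cWT mNK1 and cWT NK, and cKO NK and cWT mNK2.

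**Figure D3:**
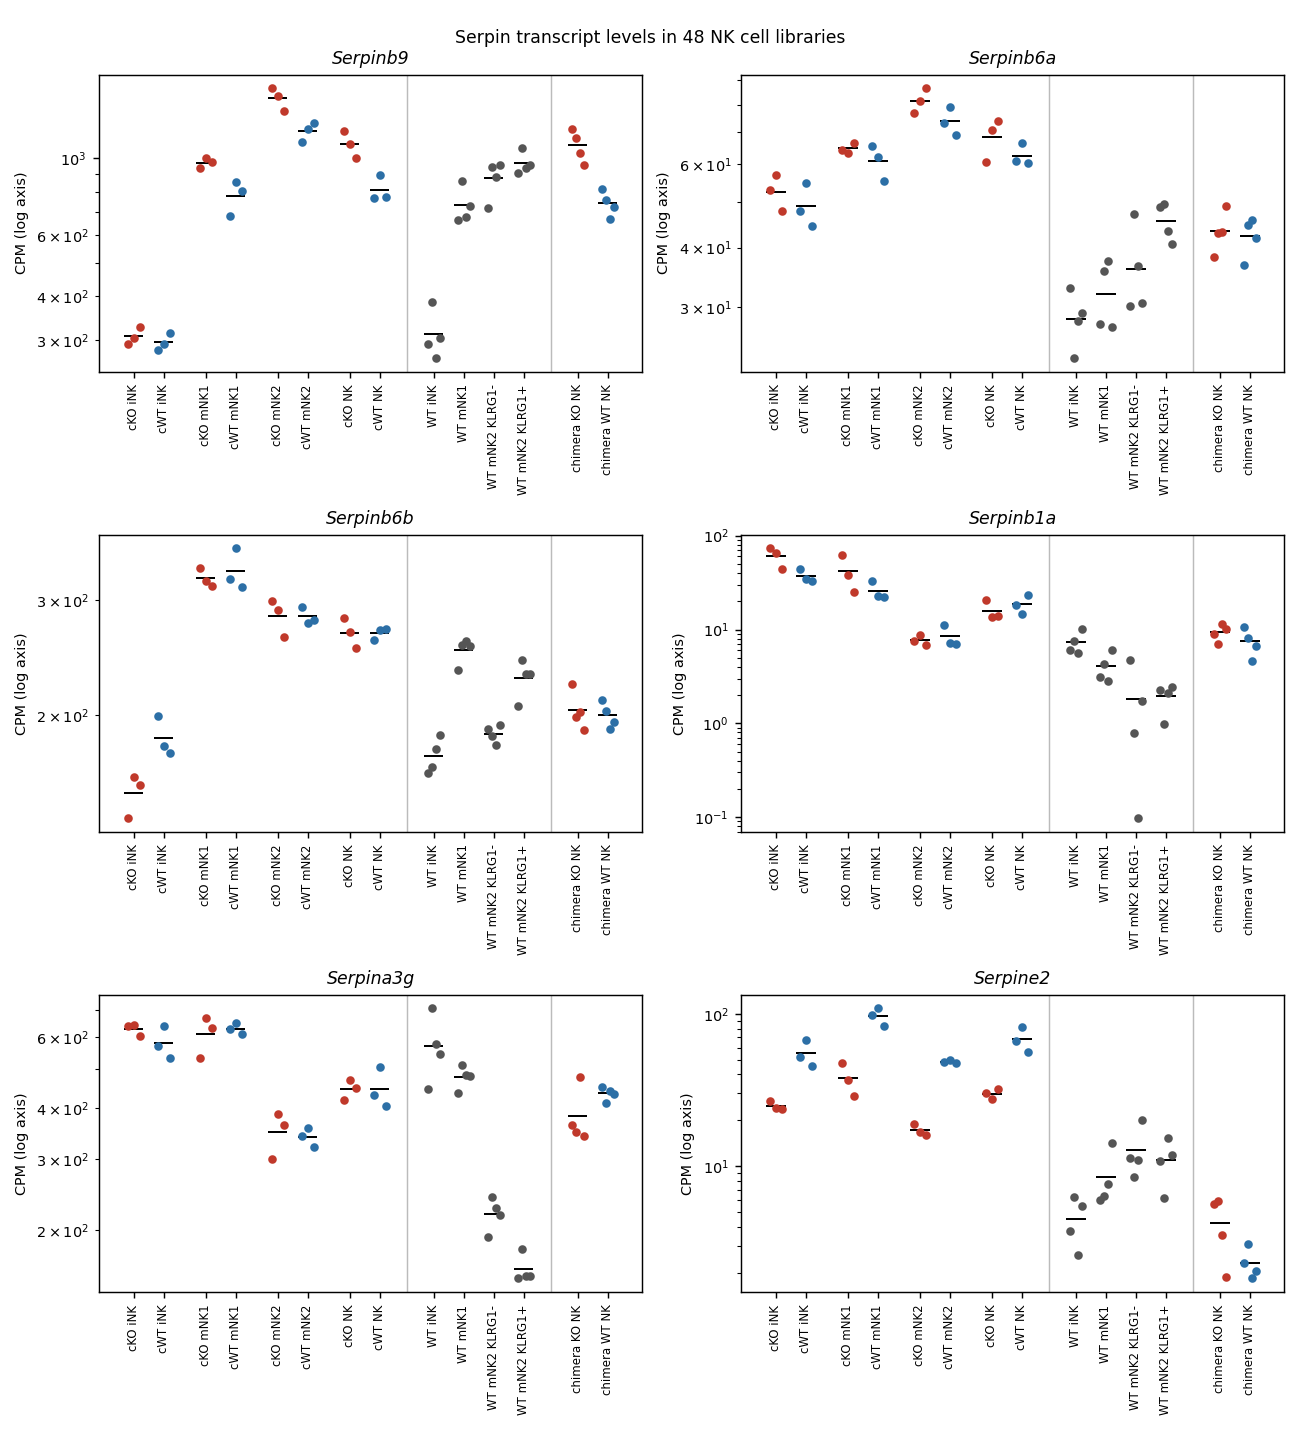
Level of each of the 6 serpin genes (vertical axis, CPM, log scale) in every library of the 14 groups, with knockout groups in red, cWT and chimera WT groups in blue, WT subsets in grey and a bar at each group mean. Grey lines separate the 3 experiments, whose levels are not compared. Serpinb9 is lowest in the iNK groups, and Serpine2 is lower in every cKO library than in any cWT library of its fraction.

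Granzyme B, the protease that Serpinb9 inhibits, had larger log2 fold changes than its inhibitor, a difference that was not tested. Gzmb averaged 3952 ± 396 CPM in NK cells labelled cKO and 1992 ± 207 CPM in those labelled cWT, and 2959.5 ± 370.1 CPM in Bach2-KO and 1315 ± 142 CPM in WT chimera cells. Its ranges did not overlap, and it was called higher in all 4 conditional fractions and in the chimeras, with log2 fold changes of 0.55 ± 0.10 in iNK, 1.06 ± 0.10 in mNK1, 0.84 ± 0.10 in mNK2, 0.99 ± 0.10 in NK and 1.17 ± 0.10 in chimera cells (edgeR adjusted p between 9.66e-08 and 0.0155). In these comparisons the ranges of 9.57% to 14.1% of all genes did not overlap. Dividing the Gzmb counts of a library by its Serpinb9 counts gives a ratio that does not depend on library scaling, though it compares genes of different length and is used only between groups. This ratio was 3.59 ± 0.0469 in cKO and 2.46 ± 0.0426 in cWT NK cells, and 2.71 ± 0.0811 in Bach2-KO and 1.77 ± 0.0701 in WT chimera cells. From iNK to mNK1 to mNK2 it was 0.975 ± 0.0815, 2.45 ± 0.162 and 5.27 ± 0.477 in cKO cells, and 0.690 ± 0.0220, 1.46 ± 0.102 and 3.67 ± 0.175 in cWT cells. In WT iNK, mNK1, KLRG1- mNK2 and KLRG1+ mNK2 cells it was 0.319 ± 0.0761, 0.8289 ± 0.0959, 1.72 ± 0.161 and 2.22 ± 0.165. The ratios of knockout and control libraries did not overlap in any of the 5 pairs, as already held for Gzmb alone. No background share was counted for such ratios, so this is a description only. The ratio was chosen after earlier results were known and carries no test.

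**Figure D4:**
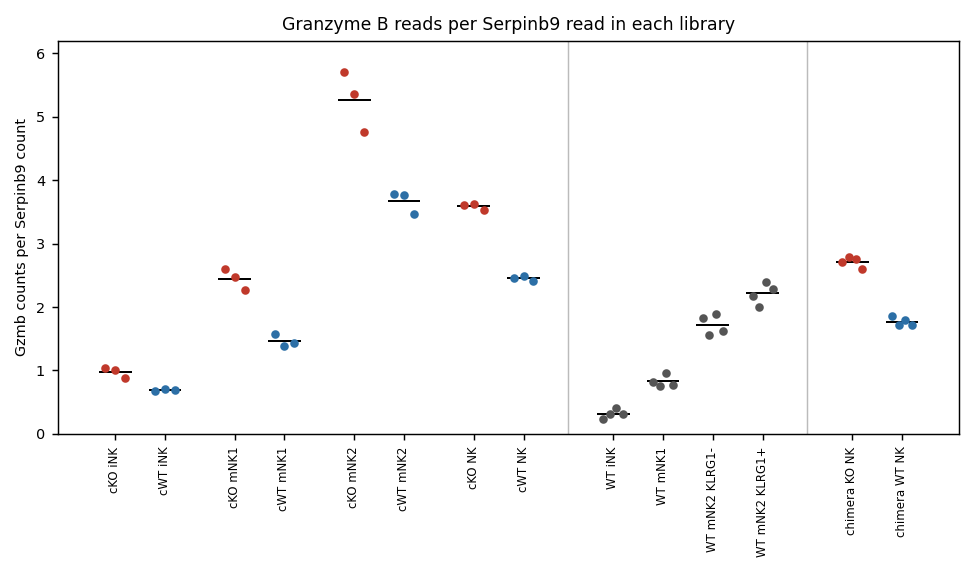
Gzmb counts divided by Serpinb9 counts (vertical axis) in each library of the 14 groups, with a bar at each group mean, knockout groups in red, cWT and chimera WT groups in blue and WT subsets in grey. The ratio is lowest in WT iNK cells at 0.319, highest in cKO mNK2 cells at 5.27, and above the matching control in each knockout group.

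Serpinb6b, the granzyme A inhibitor, was higher in mNK1 than in iNK cells and then lower again in mNK2 cells. It had 336, 321 and 315 CPM in mNK1 against 139, 161 and 156 CPM in iNK cells labelled cKO. These libraries did not overlap, as for 34.8% of all genes. The log2 fold change of mNK1 over iNK was 1.09 ± 0.08 in cKO cells (adjusted p = 9.94e-11), 0.85 ± 0.08 in cWT cells (adjusted p = 8.54e-09) and 0.53 ± 0.08 in the WT subsets (adjusted p = 2.75e-05). Among WT subsets it fell to 190.4, 186, 179.8 and 193 CPM in KLRG1- mNK2 libraries, against 234, 256, 259.9 and 255 CPM in mNK1 libraries. Those groups did not overlap, as for 13.9% of all genes, and the log2 fold change was -0.42 ± 0.08 (adjusted p = 0.000542). In the conditional experiment mNK2 averaged 284 ± 18.2 CPM against 324 ± 10.8 CPM in mNK1 cells labelled cKO, which did not pass (-0.19 ± 0.07, adjusted p = 0.0748), and 283 ± 8.68 CPM against 332 ± 24.2 CPM in those labelled cWT, which passed (-0.23 ± 0.07, adjusted p = 0.0294). The cWT call was lost with RLE scaling, without the low-count filter and without mNK1 replicate 2 or 3 or mNK2 replicate 2 or 3, at adjusted p-values of 0.0507 to 0.18. KLRG1+ mNK2 cells had 228 ± 15.2 CPM and KLRG1- mNK2 cells 187 ± 5.88 CPM, without overlap, as for 6.31% of all genes, at 0.28 ± 0.08 (adjusted p = 0.0674). The means of Serpinb6b in WT iNK and KLRG1- mNK2 libraries were neighbours whose libraries overlapped.

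Serpinb6b was called in none of the 5 knockout comparisons by edgeR. In the chimeras it averaged 203 ± 13.96 CPM in Bach2-KO and 199.7 ± 8.98 CPM in WT cells (log2 fold change 0.03 ± 0.07, adjusted p = 0.918), with overlapping libraries. In iNK cells it had 139, 161 and 156 CPM in libraries labelled cKO against 199, 179 and 175 CPM in those labelled cWT. The groups did not overlap, as for 13.1% of all genes, but the difference of -0.28 ± 0.07 did not pass (adjusted p = 0.148). In the mNK1, mNK2 and NK fractions its log2 differences were -0.04, 0.00 and 0.00, each with an SE of 0.07. Granzyme A (Gzma) was called higher in Bach2-KO chimera cells, at 22090.4 ± 3708 CPM against 14334 ± 2430 CPM in WT cells (0.62 ± 0.15, adjusted p = 0.0119), with overlapping libraries. It was called in none of the conditional fractions. In iNK cells Gzma had 962 ± 249 CPM in cKO against 1613 ± 382 CPM in cWT libraries (-0.75 ± 0.29, adjusted p = 0.55), and the log2 differences were 0.08 ± 0.29 in mNK1, 0.0060 ± 0.29 in mNK2 and 0.14 ± 0.29 in NK cells.

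Serpinb6a changed by small steps in 1 direction. It averaged 52.5 ± 4.57 CPM in iNK, 64.7 ± 1.57 CPM in mNK1 and 81.5 ± 4.97 CPM in mNK2 cells labelled cKO, and 49.0 ± 5.26, 61.0 ± 5.19 and 73.8 ± 5.11 CPM in those labelled cWT. For mNK1 over iNK the log2 fold change was 0.30 ± 0.10 in cKO (adjusted p = 0.0256) and 0.32 ± 0.10 in cWT cells (adjusted p = 0.0232), and for mNK2 over mNK1 0.33 ± 0.10 (adjusted p = 0.0149) and 0.27 ± 0.10 (adjusted p = 0.0478). Each of these 4 calls was lost when single libraries were left out, at adjusted p-values of 0.0531 to 0.196. For mNK1 over iNK these were iNK replicates 1 and 3 and mNK1 replicates 1 and 3 in cKO, and iNK replicates 1 and 3 and mNK1 replicates 1 and 2 in cWT cells. For mNK2 over mNK1 they were mNK1 replicate 2 and mNK2 replicate 3 in cKO, and mNK1 replicates 2 and 3 and mNK2 replicates 1 and 2 in cWT cells. Its means in the WT subsets were 28.4 ± 3.87 CPM in iNK, 32.0 ± 5.38 CPM in mNK1, 36.1 ± 7.92 CPM in KLRG1- mNK2 and 45.6 ± 4.22 CPM in KLRG1+ mNK2 cells, all neighbours overlapped, and no step passed (adjusted p = 0.53 to 0.65). In chimera cells it averaged 43.4 ± 4.36 CPM in Bach2-KO and 42.2 ± 4.04 CPM in WT libraries (0.04 ± 0.11, adjusted p = 0.927). Its 4 cKO differences lay between 0.09 and 0.14 on the log2 scale, with an SE of 0.10 and overlapping libraries in each fraction.

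Serpinb1a, the elastase inhibitor, had the largest fall of the 6 in mNK2 against mNK1 cells. It had 7.53, 8.78 and 6.90 CPM in mNK2 against 62.1, 38.1 and 24.9 CPM in mNK1 libraries labelled cKO, and 11.1, 7.22 and 6.99 CPM against 32.8, 22.6 and 22.3 CPM in those labelled cWT. No mNK2 library reached any mNK1 library of its genotype, as for 38.2% of all genes in cKO and 36.1% in cWT cells. The log2 fold change was -2.43 ± 0.31 in cKO (adjusted p = 1.05e-05) and -1.62 ± 0.31 in cWT cells (adjusted p = 0.000784). Between the genotypes this step differed by -0.81 ± 0.43 (unadjusted p = 0.0775, adjusted p = 1). Myeloid and dendritic markers were lower at this step too, at 168 to 190.5 CPM in mNK2 against 455 to 1145 CPM in mNK1 libraries labelled cKO. In those labelled cWT they had 169 to 334 CPM against 254 to 814 CPM. Neutrophil markers had 23.4 to 31.3 CPM against 110.3 to 254 CPM in cKO and 48.2 to 209 CPM against 72.5 to 290 CPM in cWT libraries. Of the markers tested, 8 of 10 myeloid and 2 of 9 neutrophil markers were called lower in cKO cells, and 5 of 10 and 1 of 9 in cWT cells. Lyz2 alone had a mean of 173 CPM within the mean myeloid sum of 183 CPM in cKO mNK2 cells. From iNK to mNK1 the mean myeloid sums went the other way, from 161 to 793 CPM in cKO and from 139 to 533 CPM in cWT cells. Mean Serpinb1a went from 60.9 to 41.7 CPM in cKO and from 37.1 to 25.9 CPM in cWT cells there, without a call. The part of these cells in the fall was not tested.

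Serpinb1a was also high in iNK libraries, where it had 73.5, 65.0 and 44.2 CPM in those labelled cKO against 43.8, 34.9 and 32.7 CPM in those labelled cWT. The groups did not overlap, as for 13.1% of all genes, though the nearest libraries were 44.2 and 43.8 CPM. The log2 difference of 0.71 ± 0.28 did not pass (adjusted p = 0.55). B cell markers were likewise higher there, at 849 to 1525 CPM in cKO against 536 to 834 CPM in cWT libraries, with 2 of 10 called, and their part was not tested. In mNK1 cells it averaged 41.7 ± 18.8 CPM in cKO and 25.9 ± 5.96 CPM in cWT libraries, in NK cells 15.9 ± 3.88 and 18.8 ± 4.13 CPM, and in chimeras 9.35 ± 1.92 CPM in Bach2-KO and 7.51 ± 2.52 CPM in WT libraries, without passing in any of them (adjusted p = 0.447, 0.856 and 0.623). The step of mNK1 over iNK did not pass in cKO cells (-0.55 ± 0.28, adjusted p = 0.192), and was -0.96 with an adjusted p of 0.0137 without cKO mNK1 replicate 1, the library at 62.1 CPM. Its means in the WT subsets were 7.32 ± 1.997 CPM in iNK, 4.06 ± 1.45 CPM in mNK1, 1.83 ± 2.02 CPM in KLRG1- mNK2 and 1.95 ± 0.653 CPM in KLRG1+ mNK2 cells. The 4 KLRG1- libraries had 48, 9, 1 and 18 counts, so 1 of them was under the 3 counts used as a detection floor (0.252 to 0.334 CPM there). No WT step passed, but KLRG1- mNK2 against mNK1, at -1.15 ± 0.60 (adjusted p = 0.321), was -2.21 with an adjusted p of 0.0296 without the library of 48 counts.

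Serpina3g, the cathepsin inhibitor, was lower in mNK2 than in mNK1 cells. It had 299.9, 387 and 364 CPM in mNK2 against 533, 669 and 632 CPM in mNK1 libraries labelled cKO, and 341, 357 and 322 CPM against 628, 649.9 and 613 CPM in those labelled cWT. The groups did not overlap, as for 38.2% of all genes in cKO and 36.1% in cWT cells. The log2 fold change was -0.80 ± 0.10 in cKO (adjusted p = 1.64e-06) and -0.89 ± 0.10 in cWT cells (adjusted p = 5.22e-07). For mNK1 over iNK it was -0.04 ± 0.10 in cKO (adjusted p = 0.838) and 0.12 ± 0.10 in cWT cells (adjusted p = 0.479). WT KLRG1- mNK2 libraries had 192, 241, 227 and 218 CPM against 438, 511, 485 and 479.9 CPM in mNK1 libraries, a log2 fold change of -1.12 ± 0.11 (adjusted p = 4.66e-08). At that step 5 of 8 T, 3 of 9 B and 2 of 5 myeloid and dendritic markers were called lower as well, with T cell sums of 5.05 to 12.7 CPM in KLRG1- mNK2 against 50.8 to 79.9 CPM in mNK1 libraries, and their part in the Serpina3g fall was not tested. KLRG1+ mNK2 libraries were lower again, at 152, 179.5, 154 and 154 CPM, a log2 fold change over KLRG1- of -0.46 ± 0.10 (adjusted p = 0.0213) that no longer passed without KLRG1+ replicate 1, 3 or 4 or KLRG1- replicate 2 or 3 (adjusted p = 0.0703 to 0.101). For Serpina3g in mNK1 over iNK cells of the WT subsets, the change of -0.25 ± 0.10 did not pass (adjusted p = 0.132), and without iNK replicate 1 it was -0.35 with an adjusted p of 0.0197.

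Genotype had no called effect on Serpina3g. In the chimeras it had 364, 350.5, 478 and 342 CPM in Bach2-KO against 452, 413, 442 and 435 CPM in WT libraries. Bach2-KO replicate 3 was above every WT library and the other 3 were below every WT library. The log2 fold change was -0.19 ± 0.09 (adjusted p = 0.323), and without that replicate it was -0.31 with an adjusted p of 0.0116. In the cKO fractions the log2 differences were 0.12 in iNK, -0.04 in mNK1, 0.04 in mNK2 and -0.0039 in NK cells, each with an SE of 0.10. Serpina3g shares 15.5% of its transcript sequences of 50 bases with other genes in the GENCODE vM21 models, mostly with Serpina3h (8.89%). Part of its reads could thus have been counted elsewhere or left uncounted. Few were counted as Serpina3h, which had 27 counts over all 48 libraries against 289513 for Serpina3g. Such sharing was 2.92% for Serpinb6b, 2.81% for Serpinb1a, 0.751% for Serpinb6a, 0.378% for Serpinb9 and 0.0728% for Serpine2.

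Serpine2, the thrombin and plasminogen activator inhibitor, was lower in every fraction labelled cKO, which is part of why it was listed. It had 30.2, 27.4 and 32.1 CPM in cKO against 66.0, 82.2 and 55.9 CPM in cWT libraries of the NK fraction. In iNK cells it had 26.8, 24.2 and 23.7 CPM in cKO against 52.3, 67.2 and 45.4 CPM in cWT libraries. In mNK1 cells it had 47.9, 37.0 and 28.8 CPM in cKO against 97.7, 108 and 83.1 CPM in cWT libraries, and in mNK2 cells 18.9, 16.8 and 15.9 CPM against 48.1, 49.4 and 47.3 CPM. None of the 4 pairs of groups overlapped, where 10.7% (NK), 13.1% (iNK), 14.1% (mNK1) and 11.3% (mNK2) of all genes did not, and the log2 differences were -1.18, -1.14, -1.35 and -1.49 in that order, with SEs of 0.16 to 0.17. The effect in mNK1 minus that in iNK was -0.21 ± 0.23, and in mNK2 minus that in mNK1 -0.14 ± 0.23.

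In the chimeras the order was the other way, at far fewer reads. Serpine2 had 55, 57, 29 and 20 counts in Bach2-KO libraries (5.67, 5.91, 3.54 and 1.87 CPM), against 24, 30, 25 and 26 counts in WT libraries (2.31, 3.10, 1.83 and 2.06 CPM). Bach2-KO replicates 1, 2 and 3 were above every WT library, and Bach2-KO replicate 4 was within the WT range, so the groups overlapped. The means were 4.25 ± 1.91 CPM and 2.33 ± 0.549 CPM (SD, n = 4 each), a log2 difference of 0.87 ± 0.38. The neutrophil sum of the Bach2-KO libraries was 655, 153, 241 and 326 CPM in the same order. Erythroid and platelet markers summed to 21.8, 14.9, 13.2 and 8.99 CPM in them, against 6.16, 8.87, 6.90 and 4.60 CPM in the WT libraries. Of these markers 1 of 2 tested was called higher. The part of these cells, or of the myeloid, B and T cells given above, in the Serpine2 values was not tested. Serpine2 counts of this size in the chimeras stand beside 208 to 1752 counts per library in the conditional experiment. A test of the opposite direction itself was not made, since the gene was chosen for it.

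Over the subsets, which its selection did not use, Serpine2 was higher in mNK1 than in either iNK or mNK2 cells of the conditional experiment. The log2 fold change of mNK1 over iNK was 0.60 ± 0.16 in cKO cells (adjusted p = 0.0082) and 0.81 ± 0.16 in cWT cells (adjusted p = 0.000626). Without cKO mNK1 replicate 1, at 47.9 CPM, the cKO value was 0.39 with an adjusted p of 0.0819. That of mNK2 over mNK1 was -1.14 ± 0.17 in cKO (adjusted p = 1.73e-05) and -0.998 ± 0.16 in cWT cells (adjusted p = 6.97e-05). The WT subset means were 4.51 ± 1.65 CPM in iNK, 8.54 ± 3.79 CPM in mNK1, 12.7 ± 5.08 CPM in KLRG1- mNK2 and 11.1 ± 3.80 CPM in KLRG1+ mNK2 cells, and all neighbours overlapped. No WT step passed, with log2 fold changes of 0.92 ± 0.36 (adjusted p = 0.111), 0.57 ± 0.35 (adjusted p = 0.414) and -0.20 ± 0.34 (adjusted p = 0.943). The mean was thus higher in KLRG1- mNK2 than in mNK1 cells of the WT subsets, while mNK2 was lower than mNK1 in the conditional experiment, and the difference between the experiments was not tested because they were fitted apart.

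Per kilobase of merged exon, from GENCODE vM21 lengths that may differ from the annotation behind the counts, Serpinb9, Serpina3g and Serpinb6b were the 3 highest of the 6 genes in both groups given here. In the NK fraction labelled cWT the mean level per kilobase was 232 CPM for Serpinb9, 213 CPM for Serpina3g, 118 CPM for Serpinb6b, 11.5 CPM for Serpinb6a, 8.21 CPM for Serpine2 and 8.15 CPM for Serpinb1a. In Bach2-KO chimera cells it was 312 CPM for Serpinb9, 182 CPM for Serpina3g, 89.9 CPM for Serpinb6b, 8.02 CPM for Serpinb6a, 4.06 CPM for Serpinb1a and 0.513 CPM for Serpine2.

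Across the family, 17 symbols were tested in the conditional experiment and 10 in each of the others. Serpinb9b, the relative next to Serpinb9, was called higher in Bach2-KO than in WT chimera cells at 254.9 ± 9.97 CPM against 180.5 ± 16.3 CPM (0.50 ± 0.07, adjusted p = 9.47e-05). With Serpinb9 it made 2 of the 9 family genes other than Serpine2 that were called there. Among all genes 2.64% were called higher and 2.36% lower in that comparison. In the conditional NK fraction Serpinb9b was at 349 ± 37.5 CPM in cKO against 262 ± 48.4 CPM in cWT libraries and did not pass (0.41 ± 0.14, adjusted p = 0.309). Serpinb9 was the 1 call among 16 there, where 0.571% of all genes were called. In the cKO iNK, mNK1 and mNK2 comparisons edgeR called 0 of 16, and DESeq2 called 1, 0 and 0. The 1 was Serpini1. Of all genes edgeR called 0.294%, 0.571% and 0.261% in the same order. At an unadjusted edgeR p under 0.05 there were 5, 2 and 2 family genes. The share of all genes at that cut was not counted, but an unadjusted edgeR p of 0.0487 stood at rank 939 of 12258 in iNK. Among the 5 was Serpina11, which rests on 2 counts in cKO against 19 in cWT iNK libraries. The family counts at this cut are therefore a description only. Serpini1 (neuroserpin, an inhibitor of tissue plasminogen activator) had 30.7 ± 1.42 CPM in cKO against 22.5 ± 1.08 CPM in cWT iNK libraries. These did not overlap, as for 13.1% of all genes, and the edgeR adjusted p was 0.0655.

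Serpinb9b rose at every maturation step. It averaged 220.1 ± 20.8 CPM in mNK1 against 16.7 ± 2.77 CPM in iNK cells labelled cKO (log2 fold change 3.71 ± 0.16, adjusted p = 2.35e-13), and was also called higher in KLRG1+ than in KLRG1- mNK2 cells, at 338 ± 28.4 CPM against 201 ± 14.5 CPM (0.75 ± 0.13, adjusted p = 0.00168). For mNK1 against iNK, 8 family genes were called higher and 2 lower of 17 in cKO cells, 7 higher and 1 lower of 17 in cWT cells, and 4 higher and 1 lower of 10 in the WT subsets. Beside these, 11.3% of all genes were called higher and 11.4% lower in cKO, 10.2% and 8.29% in cWT, and 6.39% and 4.14% in WT cells. Serpini1 was lower in mNK1 than in iNK cells (-0.80 ± 0.11 in cKO, adjusted p = 2.88e-06) and higher in mNK2 than in mNK1 cells (1.28 ± 0.11 in cKO, adjusted p = 3.82e-09). For mNK2 against mNK1, 4 family genes were called higher and 5 lower of 17 in cKO and likewise 4 and 5 of 17 in cWT cells. The shares of all genes there were 7.09% higher and 14.3% lower in cKO and 7.7% and 12.5% in cWT cells. For KLRG1- mNK2 against mNK1, 1 family gene was called higher and 3 lower of 10, and for KLRG1+ against KLRG1- mNK2, 1 higher and 1 lower of 10. All genes gave 2.18% higher and 5.11% lower in the first comparison and 0.733% and 0.624% in the second.

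Among the listed proteases, which are not limited to targets of serpins, 5 of 15 tested were called higher and 1 lower in Bach2-KO than in WT chimera cells. Those named by smallest p were Gzmb, Cma1 (mast cell chymase, 0.62 ± 0.08, adjusted p = 2.94e-05) and Ctsd (cathepsin D, 0.55 ± 0.12, adjusted p = 0.0062), which were higher, and granzyme M (Gzmm), which was lower at 7.64 ± 1.76 CPM against 25.2 ± 3.91 CPM (-1.72 ± 0.19, adjusted p = 1.91e-06). Of 16 tested in the conditional experiment, 1 was called higher in the cKO NK fraction, and 1 higher and 1 lower in each of iNK, mNK1 and mNK2, the higher one being Gzmb each time. The lower one was Cma1 in iNK cells, at 11.2 ± 0.441 CPM in cKO against 20.2 ± 2.77 CPM in cWT libraries (-0.86 ± 0.17, adjusted p = 0.0298), and Gzmm in mNK1 (-1.49 ± 0.30, adjusted p = 0.0281) and mNK2 cells (-1.62 ± 0.32, adjusted p = 0.0409). Beside these counts, 2.64% of all genes were called higher and 2.36% lower in the chimeras. In the conditional fractions it was 0.318% higher and 0.253% lower in NK, 0.212% and 0.0816% in iNK, 0.383% and 0.188% in mNK1, and 0.131% each way in mNK2. The median log2 fold change of the protease list was 0.10 in the NK fraction, 0.20 in iNK, 0.17 in mNK1, 0.05 in mNK2 and 0.28 in the chimeras. For mNK1 against iNK, 8 proteases were called higher and 5 lower of 16 in cKO, 7 and 2 of 16 in cWT, and 5 and 2 of 15 in WT cells, and for mNK2 against mNK1, 6 and 8 of 16 in cKO and 6 and 5 of 16 in cWT cells. For mNK1 against iNK the shares of all genes were 11.3% higher and 11.4% lower in cKO, 10.2% and 8.29% in cWT, and 6.39% and 4.14% in WT cells. For mNK2 against mNK1 they were 7.09% and 14.3% in cKO and 7.7% and 12.5% in cWT cells.

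Of the granule and protease receptor genes, Prf1 (perforin, 0.52 ± 0.10, adjusted p = 0.00206) and F2r (the thrombin receptor PAR1, 0.38 ± 0.07, adjusted p = 0.00113) were the 2 of 10 called in the chimeras, both higher in Bach2-KO cells, and in each of the 4 cKO comparisons edgeR and DESeq2 called 0 of 10. At an unadjusted p under 0.05 there were 2 in NK, 1 in iNK, 2 in mNK1 and 1 in mNK2 cells. The share of all genes at that cut was not counted, but an unadjusted edgeR p of 0.0487 stood at rank 939 of 12258 in iNK. The counts of granule and receptor genes at this cut are therefore a description only. By adjusted p, edgeR called 5% of all genes in the chimeras (2.64% higher) and 0.261% to 0.571% in the cKO comparisons. In mNK1 against iNK cells 3 of 10 granule and receptor genes were called, all higher, in both cKO and cWT cells. Among them was Prf1 at 2.45 ± 0.16 (adjusted p = 1.77e-10) and 2.14 ± 0.16 (adjusted p = 1.72e-09). At that step 11.3% of all genes were called higher in cKO and 10.2% in cWT cells. Among inhibitors outside the serpins, Cst7 (cystatin F, a granule inhibitor of cysteine cathepsins) was called higher in Bach2-KO chimera cells at 540.1 ± 31.0 CPM against 417 ± 21.3 CPM (0.37 ± 0.07, adjusted p = 0.00133). Slpi was the other of 2 of 6 called there, at 9.24 ± 4.602 CPM in Bach2-KO against 3.66 ± 1.503 CPM in WT libraries (1.35 ± 0.34, adjusted p = 0.0216), with overlapping libraries. In each of the 4 cKO comparisons 0 of 6 were called by edgeR, by DESeq2 or at an unadjusted p under 0.05. With maturation Spint2 was lower at each WT step and Timp2 (an inhibitor of metalloproteases) was higher in mNK1 than in iNK and in KLRG1- mNK2 than in mNK1 cells, with adjusted p-values of 0.00268, 2.17e-06 and 0.00124 for Spint2 and 0.0275 and 0.0232 for Timp2.

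Over the 14 group means of log2(CPM + 1), centred within each experiment, the levels of Serpinb9 and Serpinb6a had a Pearson r of 0.90, and those of Serpinb9 and Serpinb6b one of 0.79. Serpinb9 ran against Serpinb1a (r = -0.81) and Serpina3g (r = -0.66), which ran together (r = 0.80). Serpine2 followed none of the 5, with r between -0.15 and 0.30. Its selection used the knockout and control means among these 14. Its r values and its matches below therefore depend in part on that selection. Groups of an experiment share their scaling and the same maturation order, so these values are descriptions. Among 9056 genes with a mean of at least 5 CPM, the 3 most like Serpinb9 were Pigc (r = 0.990), Cd9 (r = 0.989) and Bhlhe40 (r = 0.988). Those most like Serpinb6b were 1700040L02Rik, Ehd4 and Dhrs3 (r = 0.963 to 0.966), and those like Serpinb6a included Pnrc2 (r = 0.976) and Magt1 (r = 0.972). Serpinb1a was most like Tcp11l2, Lyst and Jak2 (r = 0.977 to 0.985), and Serpina3g most like Rgs19, Tapbpl and Tmem18 (r = 0.976 to 0.984). Serpine2 had the weakest matches, with 1110008F13Rik (r = 0.880), Ten1 (r = 0.844) and Alkbh7 (r = 0.824).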

How the data were processed

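RNA-seq read counts of sorted splenic NK cells were used as deposited by the authors, as 1 whole-number count per gene symbol and library (24328 symbols, 48 libraries, 14 groups, n = 3 or 4). RNA was purified with a Qiagen kit and libraries were made with Clontech SMARTer chemistry, per the labels' protocols. FastQC, STAR 2.5.0 and the mouse build mm9 are named in the submitters' processing notes; the counting program, annotation and strand setting are not given in the sources used here, so reads of overlapping or antisense genes cannot be told apart. Sequences, lengths and neighbours come from RefSeq GRCm38.p6 and GENCODE vM21 and were not combined with mm9 coordinates.

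The 3 experiments were fitted apart with the edgeR 4.0.16 quasi-likelihood F test (R 4.3.3, TMM scaling, robust dispersions, filterByExpr), leaving 12258, 11051 and 10614 genes, with p-values adjusted by Benjamini-Hochberg over all of them and a threshold of 0.05. Levels are CPM on TMM-scaled library sizes, as mean ± SD over libraries; log2 fold changes are ± SE. A count of 3 in a library, the detection floor, is 0.143 to 0.220 CPM for conditional, 0.252 to 0.334 for WT subset and 0.232 to 0.351 for chimera libraries, and covers counting error only. Nothing states that libraries of a group came from separate animals, so p-values measure the spread between these samples. No 2 libraries were identical among 60 pairs within groups (chi-square per degree of freedom 7.34 to 84.9). The edgeR steps were tested on simulated data.

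The 6 genes, the gene lists and the marker lists were chosen with earlier results of these data known. The genes named are the 6 members, Bach2, up to 4 called genes per list and comparison with the smallest p, and for each member the 3 genes with the most similar group means, of which 1 is not reported here; Serpini1 and Serpinb9b in comparisons where they were not called, Gzma, Slpi, Spint2, Timp2, Ncr1 and Rn45s were named after their values were seen. Whether equal replicate numbers mark a shared source was checked by correlating deviations from group means between libraries of the same number: no comparison had every pair over 0.1, so the fits have no block. Alternatives were DESeq2 1.42.0, RLE factors, no low-count filter, a replicate block and leaving out each library.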

Additional observations from a re-analysis of the deposited data

Results flagged for a closer look

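In 36 sets of 4 libraries (each gene in each group of 4), 2 held a library far from the other 3, and chance alone gives about 1 in 20. Serpina3g was at 179.5 CPM in replicate 2 of the WT KLRG1+ mNK2 cells, where the other 3 libraries had 152 to 154 CPM. It was at 478 CPM in replicate 3 of the Bach2-KO chimera cells, where the other 3 had 342 to 364 CPM. Without that Bach2-KO library, Serpina3g was called lower in Bach2-KO than in WT cells, with an edgeR adjusted p of 0.0116 in place of 0.323.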

How the results depend on the processing

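Of 800 values of the 6 genes recomputed under the alternatives, 730 were unchanged, 31 lost a call, 10 gained a call and 29 changed sign, none of the last being called with all libraries. Unchanged means the same direction and the same side of the threshold. For the untested Serpine2 knockout values it means the same direction and a shift under the pooled SD of log2 CPM. The changed signs outside single left-out libraries all belong to Serpinb6b in the cKO NK comparison, at -0.00219 with DESeq2, -0.00223 with RLE factors, -0.00131 without the low-count filter and -0.00098 with the replicate block. The median shift under RLE factors was at most 0.0216 (log2).

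With DESeq2 the number of all genes called was 128 in the cKO NK comparison (70 with edgeR), 82 in iNK (36), 126 in mNK1 (70), 69 in mNK2 (32), 256 for KLRG1+ against KLRG1- mNK2 (150), 4 for the cKO effect in mNK1 minus iNK (0) and 22 for mNK2 minus mNK1 (1), and 2 of the 6 serpins were called for KLRG1+ against KLRG1- mNK2 (1). The replicate block gave 67 genes in iNK, 62 in mNK2, 16 for the cKO effect in mNK2 minus mNK1, and 2 serpins for KLRG1+ against KLRG1- mNK2. Correlations of same-numbered libraries ran from -0.37 to 0.40. Each of the 8 libraries was closest to the one sharing its number in the chimeras (0.0933 to 0.136). The same held for KLRG1- mNK2 against mNK1 and for KLRG1+ against KLRG1- mNK2. The labels do not say that equal numbers share a source. Chimera hosts carried both genotypes, so Bach2-KO and WT libraries of the same number could come from the same host. The main fits leave out any such pairing. With the block, calls were gained for Serpinb9 in KLRG1- mNK2 over mNK1 (adjusted p = 0.0218), Serpinb6b in KLRG1+ over KLRG1- mNK2 (adjusted p = 0.0379, and 0.0102 with DESeq2), Serpina3g in WT mNK1 over iNK (adjusted p = 0.0262) and Serpinb1a in cKO mNK1 over iNK (adjusted p = 0.0383). The cause was not tested. The Serpinb6a call for cWT mNK2 over mNK1 was lost without the low-count filter (adjusted p = 0.0791).

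Leaving out single libraries left 0 to 1 serpin called in the cKO NK comparison, 0 to 1 for KLRG1+ against KLRG1- mNK2 and 1 to 2 in the chimeras. The count of all genes then ran from 36 to 69 in the cKO NK comparison, 5 to 25 in iNK, 26 to 92 in mNK1 and 18 to 26 in mNK2, and from 0 to 1 and 0 to 17 for the cKO effect in mNK1 minus iNK and in mNK2 minus mNK1. Signs changed for uncalled log2 fold changes near 0. In cKO against cWT these were, in NK cells, Serpinb6b (-0.0393 to 0.00836) and Serpina3g (-0.0723 to 0.0665), in iNK cells Serpinb9 (-0.00791 to 0.0922) and Serpinb6a (-0.00487 to 0.156), in mNK1 cells Serpinb6b (-0.0850 to 0.0236) and Serpina3g (-0.112 to 0.0398), and in mNK2 cells Serpinb6b (-0.0339 to 0.0546), Serpinb1a (-0.24 to 0.12) and Serpina3g (-0.0335 to 0.145). In the chimeras they were Serpinb6a (-0.0239 to 0.0934) and Serpinb6b (-0.0203 to 0.0656), in cKO mNK1 over iNK Serpina3g (-0.108 to 0.0463), and in KLRG1+ over KLRG1- mNK2 Serpinb1a (-0.29 to 1.15) and Serpine2 (-0.40 to 0.11). Depth limits Serpine2 in the chimeras and Serpinb1a in the WT subsets, which rest on 20 to 57 and 1 to 108 counts per library.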
